A study of Rattus norvegicus with 8 samples.

Results

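The lipins and the enzymes around them that build and break down triglyceride were followed through rat livers exposed to dexamethasone, to the LXR agonist GW3965, or to both. The 9 genes were Lpin1, Lpin2, Lpin3, Gpam, Agpat2, Dgat1, Dgat2, Pnpla2 and Pnpla3, and they were found as the 15 probe sets whose single platform gene symbol is one of these names, of 14217 genes named in that way by 20826 probe sets. The animals were male Sprague-Dawley rats that received GW3965 (50 mg/kg) or its vehicle by gavage over 3 days and then, on day 3, an intramuscular dose of dexamethasone (1.5 mg/kg) or of saline. Livers were taken 24 h after that dose, and 5 µg of total RNA was labeled for each of 8 Affymetrix rat arrays. The 4 groups, with 2 arrays each, were Dex+GW3965 (both compounds), Dex (dexamethasone with the vehicle of GW3965), GW3965 (GW3965 with saline) and vehicle (neither compound). Every rat was gavaged and injected, and no engineered allele was involved.

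Triglyceride is built in the liver cell by adding fatty acyl chains in turn to glycerol 3-phosphate. Gpam starts the chain at the mitochondrial surface, Agpat2 adds the next acyl group to give phosphatidic acid, the lipins remove the phosphate to give diacylglycerol, and Dgat1 and Dgat2 add the last acyl group. Lipins are phosphatidic acid phosphatases of the cytosol and endoplasmic reticulum, and lipin 1 also acts in the nucleus as a partner of PGC-1α and PPARα. Pnpla2 (ATGL) cleaves the first acyl chain off stored triglyceride, and Pnpla3 is a related protein of the lipid droplet. Dexamethasone activates the glucocorticoid receptor (GR), and GW3965 activates both liver X receptors (LXRs), which in liver are known for raising genes of fatty acid synthesis.

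Each value is a log2 signal as the authors deposited it, so that a difference of 1 is a 2-fold difference, and signals of different probe sets were not compared. Array medians lay between 5.48 and 5.52, and the number of arrays limits the precision. Group means under 5.493, the mean of these medians, were taken as not above background. Of the 15 probe sets, 14 exceeded their array's median at least 2 times and were tested. A probe set that passed through 1 group only would have had to differ. P-values are from limma, adjusted by the Benjamini-Hochberg method over all 16253 probe sets tested, and a change was called at an adjusted p under 0.05. Where arrays of groups are said not to overlap, this is a description. With 2 arrays against 2 it also occurred in comparisons that did not pass, and its share over all probe sets was not counted. The labels give the arrays a and b of a group the same liver number, while the methods speak of 2 injected animals, so the p-values may measure only the spread between arrays of the same liver. The summed linear signal of 5 hepatocyte markers was 101900 to 102400 in Dex+GW3965, 101400 to 103300 in Dex, 98280 to 98800 in GW3965 and 95950 to 98090 in vehicle livers, and all 5 were above background. Of 6 adipocyte markers only Cfd and Lipe were above background, and the defining markers Adipoq, Lep, Plin1 and Fabp4 were not. The summed signal of 7 stellate cell markers was lower in all treated livers, at 2880 to 2887 in Dex+GW3965, 3044 to 3121 in Dex and 3847 to 3959 in GW3965 livers against 4990 to 4996 in vehicle livers. Other marker sums moved as well. Those of sinusoidal endothelial cells were 1785 to 1797 in Dex+GW3965, 2093 to 2103 in Dex, 2536 to 2561 in GW3965 and 2578 to 2669 in vehicle livers, and those of erythrocytes 8726 to 8904, 12140 to 12390, 17690 to 18680 and 11500 to 12310 in the same order of groups. Kupffer cell markers were highest in GW3965 livers (3584 to 3631, against 2780 to 2935 in vehicle). They summed to 2703 to 2806 in Dex+GW3965 and 2542 to 2571 in Dex livers. Of 5 tested Kupffer cell markers, 1 was higher and 2 were lower with dexamethasone. Cholangiocyte markers, of which 2 of 4 were above background and Krt19 and Krt7 were not, were highest in Dex+GW3965 livers (514 to 529, against 376 to 394 in vehicle). Neutrophil markers, of which 1 of 3 was above background, were lower in all treated livers (73.8 to 106, against 234 to 245 in vehicle). Markers within a sum did not all move alike. Against vehicle, 2 of 3 tested cholangiocyte markers were higher and 1 was lower with both compounds. Of 3 tested erythrocyte markers, 2 were higher and 1 was lower with GW3965. The part of these markers in the results was not tested. In RNA of whole liver, fewer cells of a type and less RNA per cell cannot be told apart.

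RefSeq promoter windows, 250 bases before to 50 bases after the annotated start in the rat build GRCr8, were at hand for 7 of the 9 genes. The windows of Lpin1 and Pnpla3 are shown because these genes had the widest spans of group means, in opposite directions. Both are written 5′ to 3′ on the strand of the gene, with capitals for a match to AGAACA or its reverse complement TGTTCT, the hexamer of the GR response element, in Lpin1 (chr6:45108893-45109192, minus strand), and for TGACGTCA, the cAMP response element, in Pnpla3 (chr7:117173278-117173577, plus strand).
Lpin1: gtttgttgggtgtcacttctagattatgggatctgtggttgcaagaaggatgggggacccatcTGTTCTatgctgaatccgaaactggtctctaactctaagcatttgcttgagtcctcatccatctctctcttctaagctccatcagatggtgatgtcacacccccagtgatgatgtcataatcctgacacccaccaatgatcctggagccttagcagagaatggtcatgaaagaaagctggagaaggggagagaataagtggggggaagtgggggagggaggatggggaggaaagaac
Pnpla3: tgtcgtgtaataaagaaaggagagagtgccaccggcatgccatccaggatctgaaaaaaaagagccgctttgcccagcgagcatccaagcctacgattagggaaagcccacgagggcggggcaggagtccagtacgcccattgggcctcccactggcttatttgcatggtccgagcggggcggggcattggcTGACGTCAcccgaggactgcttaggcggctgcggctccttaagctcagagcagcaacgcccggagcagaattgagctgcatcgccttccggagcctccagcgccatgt
The hexamer was read on both strands in 20.7% of 33469 windows and, among the 7 genes, in Lpin1 only, at position -187 from the start used. The cAMP response element was in 1.83% of all windows and in Pnpla3 only, at position -58. CCAAT (37.5% of windows) was in Lpin1, Lpin3, Gpam and Pnpla3, and GGGCGG (33.1%) in Agpat2, Pnpla2 and Pnpla3. None of the 7 held AGGTCA, the nuclear receptor hexamer (16.2%), CACGTG, the E-box (6.42%), TCACNCCAC, a form of the sterol regulatory element (1.12%), or ACANNNTGT, the spaced core of a receptor dimer site (6.86%). None of these motifs overlapped another in either window shown. The start behind the Lpin1 window lies 36903 bases inside the gene's 5′ end (gene at chr6:45039110-45145845), so promoters of longer transcripts lie outside it, as for Lpin3, whose start lies 11571 bases inside. A match is a stretch of letters and not a measured binding site.

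Dexamethasone moved most of these genes, and GW3965 alone moved fewer, all of them downwards with the signals as deposited. With dexamethasone, 8 of 14 probe sets were higher than in vehicle, 4 were lower and 2 did not pass, where 41.9% of all probe sets tested were called, 17.2% as higher and 24.7% as lower. When every gene was represented by its brightest probe set, 6 of 9 genes rose (Lpin1, Lpin2, Lpin3, Dgat1, Dgat2, Pnpla2), Gpam and Pnpla3 fell and Agpat2 did not pass, and the median change was 0.27, against -0.01 over all probe sets tested. With GW3965 alone, none of 14 was higher, 7 were lower and 7 did not pass, with 20.5% of all probe sets called, 5.93% higher and 14.5% lower. After quantile normalization Lpin1 on 1377599_at (0.14, adjusted p = 0.043) and Pnpla2 (0.22, adjusted p = 0.0236) were called higher with GW3965. The 4 genes that fell were Gpam, Agpat2, Dgat2 and Pnpla3, and the median over the 9 genes was -0.10, against -0.03 over all probe sets. With both compounds, 8 of 14 were higher than in vehicle, 2 were lower and 4 did not pass, where 36.8% of all were called, 15.6% higher and 21.2% lower, and the median over the 9 genes was 0.33, against -0.02 over all probe sets. The 2 lower with both compounds, and 2 of the 4 lower with dexamethasone, were those of Pnpla3. They passed the filter only through groups without dexamethasone, so the filter in part fixed these calls in advance. These 3 comparisons share the vehicle arrays, so their values are given side by side and no overlap between them was tested. The GW3965 calls over all probe sets were 963 higher and 2362 lower, and after quantile normalization 1208 higher and 1505 lower. They numbered 2127 without GW3965 replicate a and 1804 without GW3965 replicate b, against 3325 with all arrays.

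**Figure D1:**
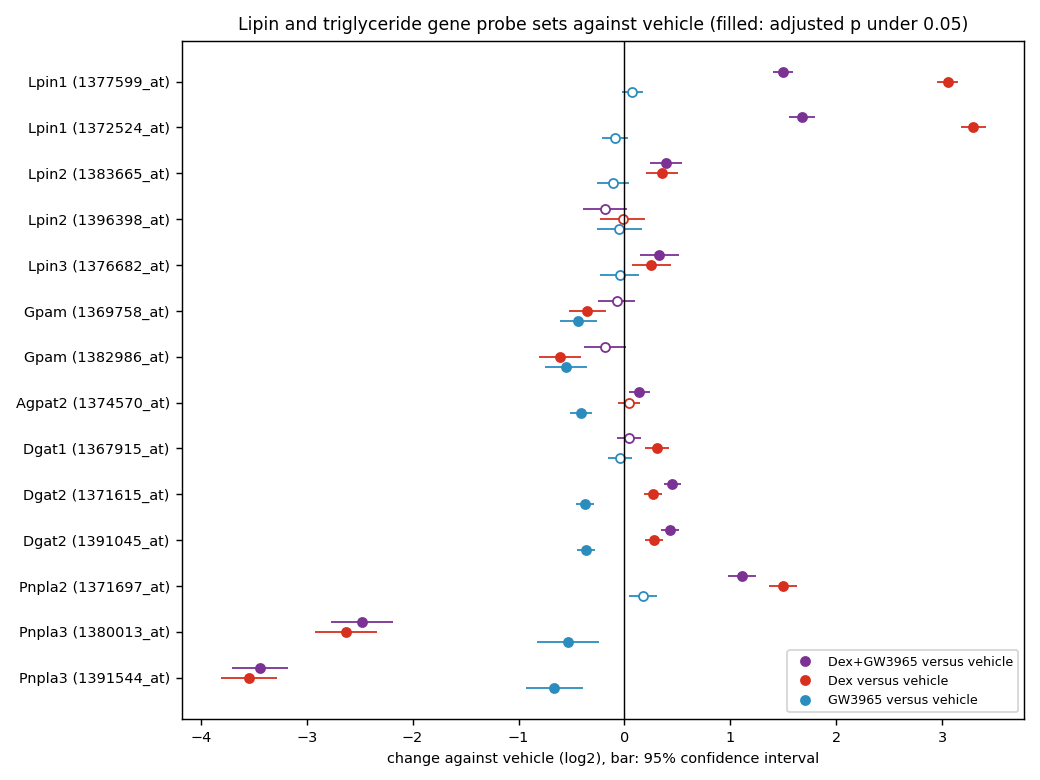
Log2 change against vehicle (horizontal axis) with its 95% confidence interval for each of the 14 tested probe sets (rows), for Dex+GW3965, Dex and GW3965, with filled points at an adjusted p under 0.05. Lpin1 lies at 3.05 and 3.29 for Dex and near 0 for GW3965, and both Pnpla3 probe sets lie far to the left for Dex+GW3965 and Dex, where their signals were not above background and the plotted changes are the measured differences.

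Lpin1, a lipin whose mRNA is known to rise in mouse liver on fasting, was the gene that rose most. Dexamethasone increased its mRNA expression 8.3-fold on the brighter probe set and 9.81-fold on the other, and GW3965 alone left it near vehicle. With both compounds the increase over vehicle was 2.82-fold and 3.2-fold. On probe set 1377599_at the signals were 9.93 and 9.99 in Dex+GW3965, 11.50 and 11.53 in Dex, 8.53 and 8.55 in GW3965, and 8.43 and 8.49 in vehicle livers. On 1372524_at they were 9.41 and 9.50 in Dex+GW3965, 11.05 and 11.10 in Dex, 7.70 and 7.67 in GW3965, and 7.72 and 7.84 in vehicle livers. On both probe sets the Dex arrays were the highest, the Dex+GW3965 arrays lay between them and the other groups, and no array of these groups overlapped with another group's. The change with dexamethasone was 3.05 (SE 0.047, adjusted p = 2.24e-18) and 3.29 (SE 0.057, adjusted p = 8.59e-18). GW3965 against vehicle gave 0.08 (95% interval -0.02 to 0.17, adjusted p = 0.285) and -0.09 (-0.21 to 0.03, adjusted p = 0.305), so that the probe sets differed in sign and neither passed, but after quantile normalization the first passed at 0.14 (adjusted p = 0.043). Dex+GW3965 lay below Dex by 2.94-fold on the first probe set (log2 change -1.56 (SE 0.047), adjusted p = 1.15e-13) and by 3.07-fold on the second (-1.62 (SE 0.057), adjusted p = 9.23e-13). It still lay above GW3965 alone, by 1.42 (adjusted p = 7.27e-14) and 1.77 (adjusted p = 6.22e-14).

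Lpin2 and Lpin3, the other lipin phosphatases, moved far less. Lpin2 on its brighter probe set 1383665_at rose 1.27-fold with dexamethasone and 1.31-fold with both compounds. Its signals were 8.24 and 8.09 in Dex+GW3965, 8.12 and 8.12 in Dex, 7.65 and 7.68 in GW3965, and 7.70 and 7.84 in vehicle livers. Both groups with dexamethasone thus lay above both groups without it, and within each of these pairs the difference did not pass. The change was 0.35 with dexamethasone (SE 0.072, adjusted p = 0.000652), 0.39 with both (SE 0.072, adjusted p = 0.000277) and -0.10 with GW3965 (95% interval -0.26 to 0.05, adjusted p = 0.347). Dex+GW3965 minus Dex was 0.04 (95% interval -0.11 to 0.19). The dimmer Lpin2 probe set, 1396398_at, did not show this, with signals of 6.38 and 6.59 in Dex+GW3965, 6.59 and 6.71 in Dex, 6.66 and 6.59 in GW3965, and 6.60 and 6.74 in vehicle livers and no comparison past the threshold. Its dexamethasone change was -0.02 (95% interval -0.23 to 0.19), which does not reach the 0.35 of the brighter probe set, so the 2 probe sets of Lpin2 disagree.

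Lpin3 rose 1.26-fold with both compounds and 1.19-fold with dexamethasone. Its signals were 7.68 and 7.43 in Dex+GW3965, 7.49 and 7.46 in Dex, 7.25 and 7.10 in GW3965, and 7.22 and 7.22 in vehicle livers. Again both groups with dexamethasone lay above both without it, with the widest gap between arrays in Dex+GW3965. The change was 0.33 with both compounds (SE 0.087, adjusted p = 0.00591) and 0.25 with dexamethasone (SE 0.087, adjusted p = 0.0265), and GW3965 gave -0.05 (95% interval -0.23 to 0.14). The dexamethasone call was lost when any array of Dex or vehicle was left out: the adjusted p was 0.0749 without vehicle replicate a, 0.0759 without vehicle replicate b, 0.111 without Dex replicate a and 0.0764 without Dex replicate b. The call with both compounds was lost without Dex+GW3965 replicate a (0.21, adjusted p = 0.123).

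**Figure D2:**
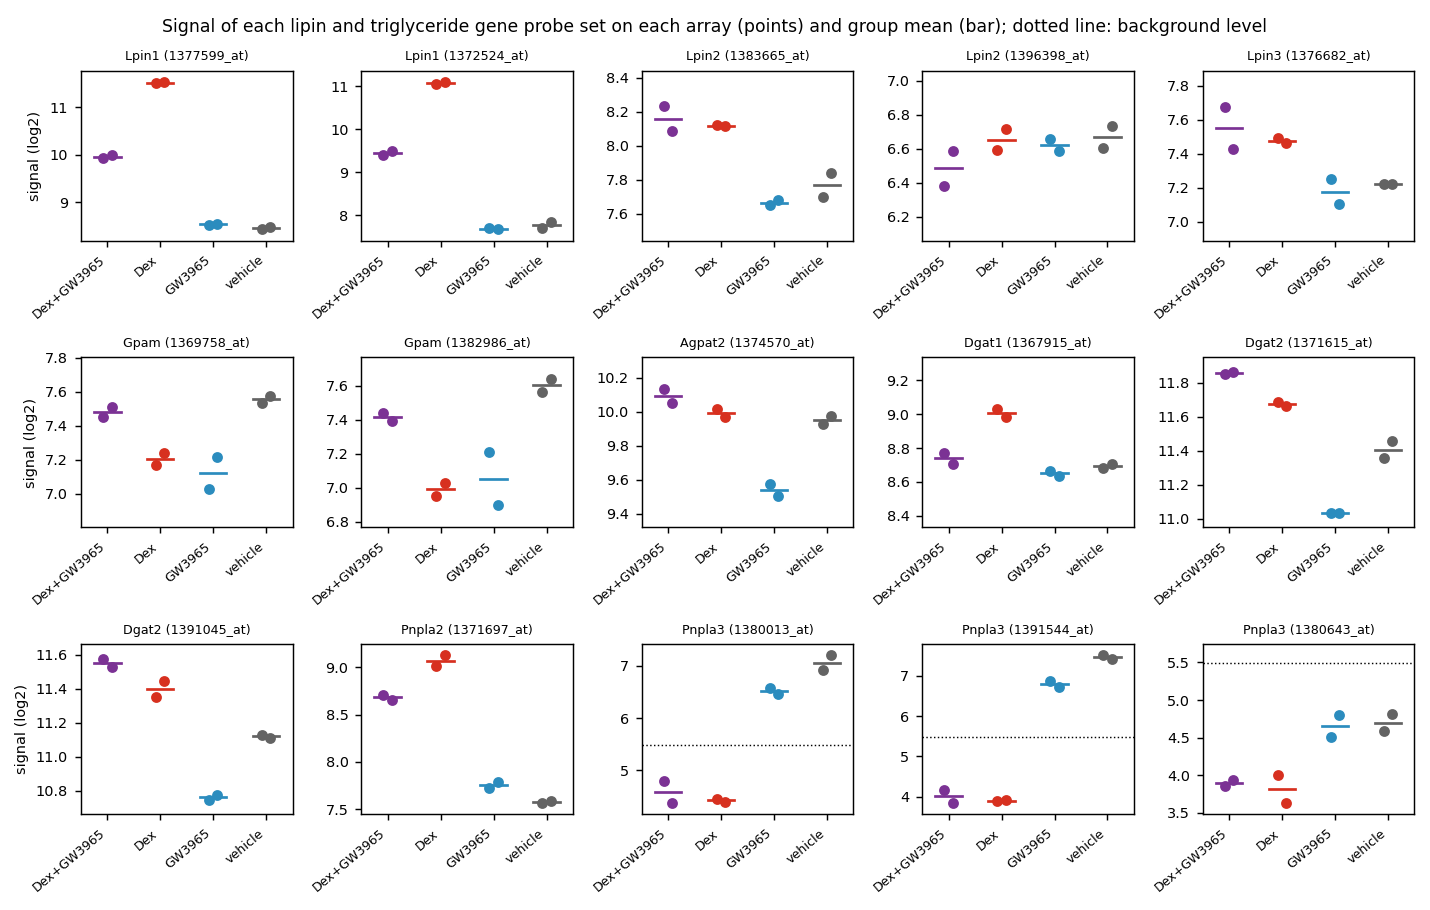
Log2 signal of each of the 15 probe sets (panels, with their own vertical ranges) on each array (points) in Dex+GW3965, Dex, GW3965 and vehicle livers, with a bar at the group mean and a dotted line at the background level of 5.493 where it falls in the panel. Lpin1 and Pnpla2 are highest in Dex livers, Dgat2 is highest in Dex+GW3965 livers, Gpam is lower with either compound alone, and Pnpla3 lies under the background level in both groups with dexamethasone.

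Gpam and Agpat2, the acyltransferases that open the pathway, were lowered by GW3965 alone, and Gpam was lowered by dexamethasone alone as well, but neither passed the test as lower in the fit to all arrays when the compounds were combined. Gpam on probe set 1369758_at gave 7.45 and 7.51 in Dex+GW3965, 7.17 and 7.24 in Dex, 7.03 and 7.22 in GW3965, and 7.53 and 7.58 in vehicle livers. On 1382986_at it gave 7.44 and 7.39 in Dex+GW3965, 6.95 and 7.03 in Dex, 7.21 and 6.90 in GW3965, and 7.57 and 7.64 in vehicle livers. Arrays of the single treatments overlapped with each other and lay below those of vehicle and of Dex+GW3965 on both probe sets. Dexamethasone changed Gpam by -0.35 (SE 0.081, adjusted p = 0.00191) and -0.61 (SE 0.094, adjusted p = 3.7e-05), and GW3965 by -0.43 (SE 0.081, adjusted p = 0.000875) and -0.55 (SE 0.094, adjusted p = 0.000401). Dex+GW3965 minus vehicle was -0.07 (95% interval -0.25 to 0.10, adjusted p = 0.523) and -0.18 (-0.38 to 0.01, adjusted p = 0.141). Against Dex, the combination was higher by 0.28 (adjusted p = 0.0202) and 0.43 (adjusted p = 0.00285). The first of these calls was lost without Dex replicate a (adjusted p = 0.126), Dex replicate b (0.0521) or Dex+GW3965 replicate b (0.13). The arrays of GW3965 differed most from each other for this gene, and without GW3965 replicate b the second probe set no longer differed between Dex+GW3965 and GW3965 (0.20, adjusted p = 0.141, against 0.36 with all arrays).

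Agpat2 fell 1.33-fold with GW3965 and did not pass with dexamethasone. Its signals were 10.13 and 10.05 in Dex+GW3965, 10.02 and 9.97 in Dex, 9.58 and 9.51 in GW3965, and 9.93 and 9.98 in vehicle livers. The GW3965 arrays stood below all others, whereas those of Dex and vehicle overlapped. The change was -0.41 with GW3965 (SE 0.047, adjusted p = 5.98e-06), 0.04 with dexamethasone (95% interval -0.06 to 0.14, adjusted p = 0.508) and 0.14 with both compounds (SE 0.047, adjusted p = 0.0276). This last call was lost in several other fits, with an adjusted p of 0.127 without vehicle replicate a and 0.226, at a change of 0.10, without Dex+GW3965 replicate a. Between Dex+GW3965 and GW3965 the difference was 0.55 (SE 0.047, adjusted p = 4.19e-08).

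The diacylglycerol acyltransferases, which make the last step, both rose with dexamethasone but diverged when GW3965 was present. Dgat1 gave 8.77 and 8.71 in Dex+GW3965, 9.03 and 8.98 in Dex, 8.67 and 8.64 in GW3965, and 8.68 and 8.70 in vehicle livers. Only the Dex arrays stood apart by a clear margin. Dgat1 rose 1.24-fold with dexamethasone (0.31, SE 0.054, adjusted p = 0.000123) and was lower in Dex+GW3965 than in Dex by 1.2-fold (-0.27, SE 0.054, adjusted p = 0.00136). Against vehicle, GW3965 gave -0.04 (95% interval -0.16 to 0.07, and 0.03 after quantile normalization) and Dex+GW3965 gave 0.04 (-0.07 to 0.16), neither past the threshold.

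Dgat2 was highest with both compounds and lowest with GW3965 alone. Probe set 1371615_at gave 11.85 and 11.87 in Dex+GW3965, 11.69 and 11.67 in Dex, 11.03 and 11.03 in GW3965, and 11.36 and 11.46 in vehicle livers. Probe set 1391045_at gave 11.57 and 11.53 in Dex+GW3965, 11.35 and 11.45 in Dex, 10.75 and 10.77 in GW3965, and 11.13 and 11.11 in vehicle livers. The 4 groups did not overlap on either probe set and kept the same order. GW3965 alone lowered Dgat2 by 1.3-fold and 1.28-fold (-0.37, SE 0.039, adjusted p = 1.54e-06, and -0.36, SE 0.04, adjusted p = 3.67e-06). Dexamethasone raised it by 0.27 (SE 0.039, adjusted p = 1.61e-05) and 0.28 (SE 0.04, adjusted p = 1.77e-05), and both compounds by 0.45 (adjusted p = 3.48e-08) and 0.43 (adjusted p = 1.1e-07). Dex+GW3965 lay above Dex by 0.18 (adjusted p = 0.00205) and 0.15 (adjusted p = 0.00995). These last calls were lost in a fit without an intensity trend (adjusted p = 0.0702 and 0.12), and the second also without Dex replicate a (0.10, adjusted p = 0.164) or Dex+GW3965 replicate a (0.13, adjusted p = 0.0903).

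Pnpla2, the lipase that opens triglyceride breakdown, rose with dexamethasone in the presence and absence of GW3965. Its signals were 8.71 and 8.66 in Dex+GW3965, 9.01 and 9.13 in Dex, 7.72 and 7.78 in GW3965, and 7.56 and 7.59 in vehicle livers. The 4 groups did not overlap, and the groups with dexamethasone stood well above the others. Pnpla2 was 2.82-fold higher in Dex (1.49, SE 0.062, adjusted p = 1.49e-12) and 2.16-fold higher in Dex+GW3965 than in vehicle (1.11, SE 0.062, adjusted p = 1.28e-10). Dex+GW3965 was 1.31-fold below Dex (-0.39, SE 0.062, adjusted p = 0.000184). GW3965 alone gave 0.18 (95% interval 0.04 to 0.31, adjusted p = 0.0551), and 0.22 with an adjusted p of 0.0236 after quantile normalization. The 6 adipocyte markers summed to 390 to 433 in Dex+GW3965, 447 to 452 in Dex, 473 to 489 in GW3965 and 457 to 520 in vehicle livers. Adipoq, Lep, Plin1 and Fabp4 among them were not above background, and the part of these markers in the Pnpla2 values was not tested.

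Pnpla3 fell most of the 9 genes, to signals under background in both groups with dexamethasone. Probe set 1380013_at gave 4.79 and 4.37 in Dex+GW3965, 4.45 and 4.40 in Dex, 6.57 and 6.47 in GW3965, and 6.91 and 7.20 in vehicle livers. Probe set 1391544_at gave 4.18 and 3.85 in Dex+GW3965, 3.90 and 3.92 in Dex, 6.87 and 6.72 in GW3965, and 7.50 and 7.41 in vehicle livers. Arrays with dexamethasone therefore lay below those without it, and those of Dex+GW3965 and Dex overlapped. Because the lower groups were not above background, the fall is given as a bound against the median of each array: at least 2.98-fold and at least 3.93-fold lower with both compounds (adjusted p = 1.3e-10 and 3.43e-13), and at least 2.95-fold and at least 3.89-fold lower with dexamethasone (adjusted p = 4.14e-11 and 1.65e-13). The adjusted p-values are those of the measured differences and not of the bounds. Both probe sets passed the filter only through the GW3965 and vehicle arrays, where they were high. The filter thus in part fixed a lower level with dexamethasone in advance, and these adjusted p-values are not support for it. Both groups with dexamethasone being under background, no difference between Dex+GW3965 and Dex can be read. GW3965 alone lowered Pnpla3 by 1.45-fold and 1.58-fold (-0.53, SE 0.14, adjusted p = 0.0108, and -0.66, SE 0.13, adjusted p = 0.00103), and the first of these calls was lost without vehicle replicate b (-0.39, adjusted p = 0.127) or GW3965 replicate b (-0.48, adjusted p = 0.112). The third probe set, 1380643_at, was not above background in any group and was not tested: it gave 3.85 and 3.93 in Dex+GW3965, 4.00 and 3.63 in Dex, 4.51 and 4.80 in GW3965, and 4.59 and 4.81 in vehicle livers. The summed stellate cell signal was also lower in the treated groups, as given above (4 of 7 markers lower and 2 higher with dexamethasone), and its part in the Pnpla3 values was not tested.

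The design also asks whether dexamethasone acted on these genes differently when GW3965 had been given. This was read as the interaction, the difference between Dex+GW3965 and GW3965 minus the difference between Dex and vehicle. Of 14 probe sets, 7 had a higher and 4 a lower change with dexamethasone in the presence of GW3965, and 3 did not pass, where 22.8% of all probe sets were called, 15.8% higher and 6.93% lower. The 7 include both Pnpla3 probe sets, whose signals were not above background in either group with dexamethasone. For them a GW3965 level below vehicle was enough to give a positive value, so they are no result about dexamethasone. After quantile normalization the calls over all probe sets were 1843 higher and 1589 lower, against 2571 higher and 1127 lower. The direction differed between genes. For Lpin1 the interaction was -1.63 (SE 0.066, adjusted p = 1.04e-11) and -1.53 (SE 0.081, adjusted p = 3.2e-10), so that 46.6% and 53.7% of the log2 change with dexamethasone was kept in GW3965-treated rats. For Pnpla2 it was -0.56 (SE 0.088, adjusted p = 0.000152), with 62.5% kept. For Gpam the sign of the dexamethasone change turned: 0.36 on both probe sets with GW3965, against -0.35 and -0.61 without it (interaction 0.71, adjusted p = 0.000205, and 0.97, adjusted p = 3.81e-05). The size of this turn depends on single arrays: without GW3965 replicate b, the 0.36 of the second Gpam probe set was 0.20. For Dgat2 the dexamethasone change was 0.83 and 0.79 with GW3965, against 0.27 and 0.28 without it (interaction 0.56, adjusted p = 8.54e-07, and 0.51, adjusted p = 3.48e-06), and for Agpat2 it was 0.55 with GW3965, against 0.04 without it (interaction 0.51, SE 0.067, adjusted p = 2.73e-05). In these 3 genes the level with GW3965 alone lay below vehicle. Dgat1 had an interaction of -0.22 (SE 0.076, adjusted p = 0.0411), which was lost when arrays were centred on their medians (-0.19, adjusted p = 0.0907) and without any 1 array other than Dex+GW3965 replicate a (adjusted p 0.0524 to 0.143). Lpin2 (0.15, 95% interval -0.07 to 0.36) and Lpin3 (0.12, -0.14 to 0.38) did not pass. The values for Pnpla3, 0.69 and 0.77 (adjusted p = 0.0167 and 0.00454), rest on signals under background and on a lower GW3965 level, and their size cannot be read as a change. The first was lost without vehicle replicate b, Dex replicate b, GW3965 replicate b or Dex+GW3965 replicate a (adjusted p 0.0503 to 0.0895).

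**Figure D3:**
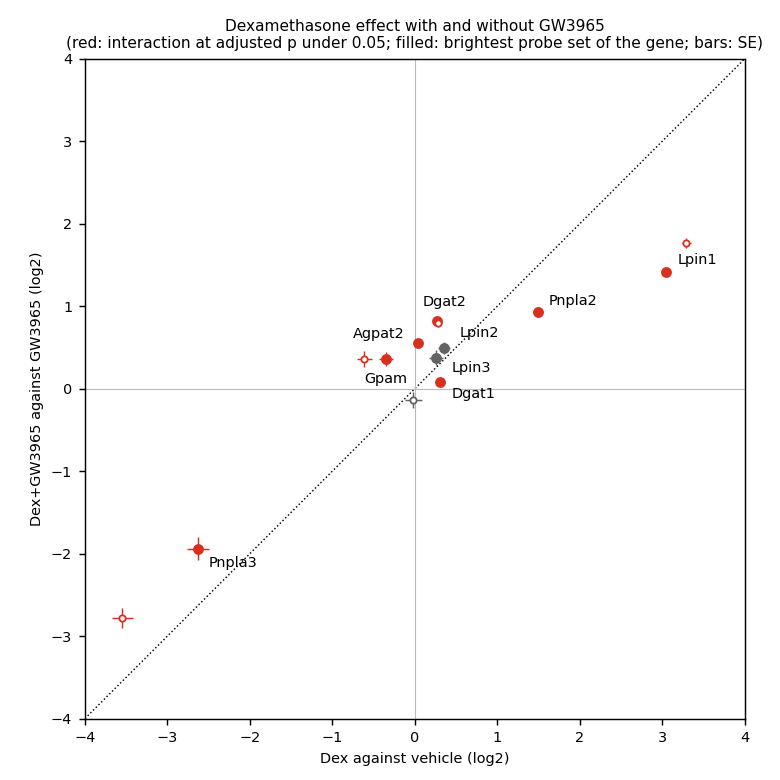
Log2 change with dexamethasone in GW3965-treated rats (vertical axis, Dex+GW3965 against GW3965) against that in vehicle-treated rats (horizontal axis, Dex against vehicle) for the 14 tested probe sets, with SE bars, the line of equal change dotted and probe sets with an interaction at an adjusted p under 0.05 in red. Lpin1 (1.42 against 3.05) and Pnpla2 lie below the line, and Gpam, Agpat2 and Dgat2 lie above it.

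Dex+GW3965 was further set against each single treatment. Against Dex, 4 of 14 probe sets were higher (Gpam and Dgat2), 4 were lower (Lpin1, Pnpla2 and Dgat1) and 6 did not pass, where 22.8% of all were called, 13.4% higher and 9.38% lower. Over all probe sets the calls numbered 2401 without Dex replicate b and 2376 without Dex+GW3965 replicate b, against 3698 with all arrays. Against GW3965, 10 of 14 were higher, 2 lower (Pnpla3) and 2 did not pass (Dgat1 and the dimmer Lpin2 probe set), where 35.8% of all were called, 19% higher and 16.8% lower. The 2 Pnpla3 probe sets were under background with dexamethasone and passed the filter only through groups without it. This limit also holds for their calls in Dex against GW3965. Between the single treatments, Dex against GW3965, 11 of 14 were called, where 39.3% of all were. Those that did not pass were both Gpam probe sets (0.08, 95% interval -0.09 to 0.26, and -0.06, -0.26 to 0.13) and the dimmer Lpin2 probe set (0.03, -0.18 to 0.24). Against GW3965, the Lpin3 call of Dex+GW3965 was lost without Dex+GW3965 replicate a (adjusted p = 0.0595), and that of Dex without Dex replicate a (0.062) or GW3965 replicate b (0.131).

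In the order of levels, Lpin1 and Pnpla2 went upward through vehicle or GW3965, then Dex+GW3965, then Dex. Vehicle and GW3965 did not differ past the threshold with the signals as deposited. After quantile normalization Pnpla2 and Lpin1 on 1377599_at were called higher in GW3965 than in vehicle. Dgat2 went upward through GW3965, vehicle, Dex and Dex+GW3965, and each step passed. For Agpat2 only the step between GW3965 and vehicle passed, and for Dgat1 only that between Dex+GW3965 and Dex. For Gpam only the middle step passed, between the single treatments below and Dex+GW3965 and vehicle above. Over the 8 arrays, which share 4 groups, Pearson's r as a description was 0.97 between Lpin1 and Pnpla2, 0.93 between Lpin1 and Dgat1, 0.94 between Agpat2 and Dgat2, -0.97 between Pnpla2 and Pnpla3 and -0.23 between Lpin1 and Gpam. Pnpla3 was not above background on the 4 arrays with dexamethasone, so its r values rest in part on background signal.

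Among 12892 probe sets with 1 symbol, the genes whose pattern over the 8 arrays was most like that of Lpin1 were Igfbp1 (r = 0.998), which binds insulin-like growth factors, Mdh1, the cytosolic malate dehydrogenase, Mtmr7, a myotubularin-related phosphatase, Cyp3a18, a cytochrome P450, and Rgs5, a regulator of G protein signaling that is also among the stellate cell markers and was above background only with dexamethasone. Igfbp1 changed by 1.68 with both compounds, 3.19 with dexamethasone and 0.11 with GW3965. Those most like Pnpla2 were Snx11, Pla2g12a, Cyp2d4, Mfsd2a and Idh3g (r from 0.994 to 0.996), of which Mfsd2a, a transporter of lysophospholipids, changed by 2.05 with both compounds and 2.57 with dexamethasone. Those most like Pnpla3 were Ninj1, Ppp2r1a, Cyb5r3, Plbd1 and Cdk2ap2 (r from 0.995 to 0.997), whose changes with dexamethasone ran from -0.53 to -0.70, with the same limit on the Pnpla3 signal. These genes were picked for their likeness, and the r values carry no test.

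The genes around these were read as lists, by counts and medians beside the shares called over all probe sets, which were 24.7% lower and 17.2% higher with dexamethasone, 21.2% lower and 15.6% higher with both compounds, and 14.5% lower and 5.93% higher with GW3965. Of 10 tested genes of fatty acid uptake and acyl-CoA synthesis, 6 fell with dexamethasone, Slc27a2 rose and 3 did not pass, with a median of -0.55, against -0.01 over all probe sets. They included the acyl-CoA synthetases Acsl3 (-1.02) and Acsl5 (-0.84), the bile acid and fatty acid ligase Slc27a5 (-0.90) and the fatty acid transporter Cd36 (-0.81). With both compounds 7 fell and 2 rose, with a median of -0.27, and with GW3965 alone 3 fell and 1 rose. Of 5 tested genes of glycerol phosphate supply, dexamethasone lowered Aqp9, the glycerol channel of hepatocytes, and Gk, glycerol kinase. Aqp9 averaged 10.33 in Dex+GW3965, 9.61 in Dex, 10.76 in GW3965 and 10.84 in vehicle livers, a change of -0.51 with both compounds (adjusted p = 2.21e-07) and -1.23 with dexamethasone (adjusted p = 1.1e-12). Gk was higher than in vehicle with both compounds (0.36, adjusted p = 5.56e-07) and lower with dexamethasone alone (-0.38, adjusted p = 1.96e-07), with an interaction of 0.71 (adjusted p = 3.03e-08).

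Of 12 tested lipid droplet proteins and lipase cofactors, 8 rose with dexamethasone, 1 fell and 3 did not pass (median 0.24), where 17.2% of all probe sets rose and 24.7% fell. With both compounds 7 rose and 1 fell, and with GW3965 alone 1 rose and 5 fell, where 5.93% of all rose and 14.5% fell. Cidea, a protein that fuses droplets, rose most, with means of 9.80 in Dex+GW3965, 10.05 in Dex, 7.51 in GW3965 and 6.66 in vehicle livers, so that it was above background in every group. Its change was 3.14 with both compounds (adjusted p = 6.53e-16), 3.39 with dexamethasone (adjusted p = 1.66e-16) and 0.85 with GW3965 (adjusted p = 1.46e-07). The droplet proteins Hsd17b13 (0.59) and Cidec (0.53) rose with dexamethasone and fell with GW3965 (-0.32 and -0.24). Of the cofactors of Pnpla2, the activator Abhd5 fell with dexamethasone (-0.70), and the inhibitor G0s2 rose (0.26). Plin1 and Plin5 did not pass the filter on dim probe sets.

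**Figure D4:**
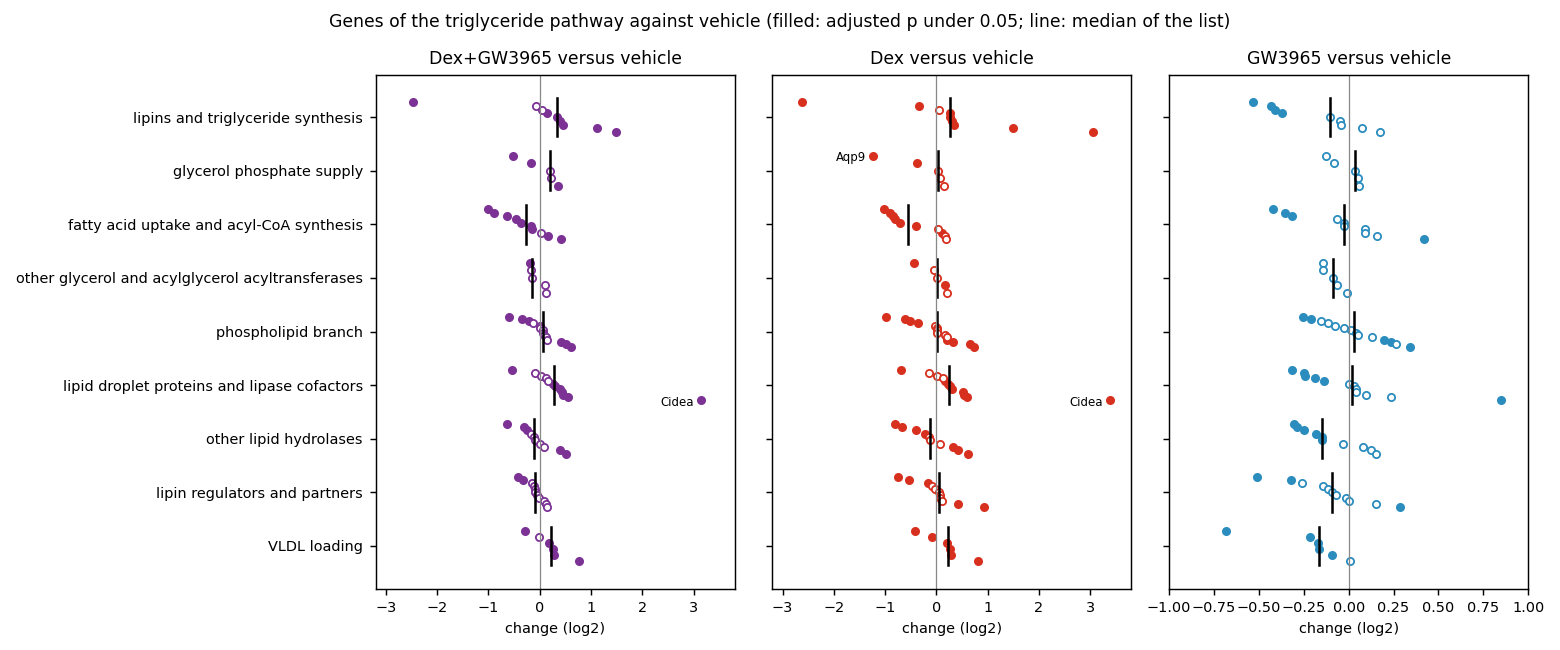
Log2 change against vehicle of each tested gene (points, brightest probe set) of the 9 genes and of 8 lists of their pathway for Dex+GW3965, Dex and GW3965, with filled points at an adjusted p under 0.05 and a line at the median of each list; the GW3965 panel has a narrower horizontal range. Cidea lies at 3.14 and 3.39 in the Dex+GW3965 and Dex panels, and the fatty acid uptake list has the lowest median with Dex, -0.55.

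Other lists held calls in both directions, and their counts are to be read against the 41.9% of all probe sets called with dexamethasone and the 20.5% called with GW3965. Of 10 tested lipid hydrolases other than Pnpla2 and Pnpla3, 3 rose and 4 fell with dexamethasone, among them the carboxylesterase Ces1d (-0.81), the lysosomal lipase Lipa (-0.67), the lysophospholipase Pnpla7 (0.62) and Ddhd2 (0.43), while GW3965 alone lowered 6 and raised none. Lipe, the hormone-sensitive lipase, gave 0.09 with both compounds, 0.07 with dexamethasone and 0.13 with GW3965, none past the threshold. Of 14 tested genes of the phospholipid branch, which shares phosphatidic acid and diacylglycerol with triglyceride synthesis, 4 rose and 4 fell with dexamethasone. Chka, choline kinase, fell by 0.99 with dexamethasone (adjusted p = 1.55e-10), and its Dex+GW3965 level differed from vehicle by 0.07 (adjusted p = 0.411, interaction 0.93, adjusted p = 2.24e-07). Pcyt1a (0.72) and Chpt1 (0.65), the later enzymes of phosphatidylcholine synthesis, rose with dexamethasone, and Cept1 (-0.61) fell. Of 5 tested other acyltransferases, Gpat4 rose (0.16) and Lclat1 fell (-0.43) with dexamethasone, a share near that over all probe sets, and GW3965 moved none past the threshold. Of 6 genes that load VLDL, 4 rose and 2 fell with dexamethasone and 5 fell with GW3965, with Tm6sf2 at 0.81 with dexamethasone and P4hb, a subunit of the microsomal triglyceride transfer protein complex, at -0.69 with GW3965.

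Among 11 tested regulators and partners of lipins, 2 rose and 3 fell with dexamethasone, a share near the 41.9% called over all probe sets, and with both compounds none rose and 2 fell, where 36.8% of all were called. Ppargc1a, which encodes PGC-1α, averaged 5.77 in Dex+GW3965, 6.55 in Dex, 5.63 in GW3965 and 5.63 in vehicle livers, close above background in all but the Dex group. It rose by 0.92 with dexamethasone (SE 0.13, adjusted p = 1.38e-05) and stood at 0.14 with both compounds (adjusted p = 0.444), with an interaction of -0.78 (adjusted p = 0.00481). Nr3c1, the GR, changed by -0.15 with both compounds (adjusted p = 0.0769), -0.75 with dexamethasone (adjusted p = 1.86e-08) and 0.29 with GW3965 (adjusted p = 0.00277). Srebf1, a transcription factor of lipogenesis, was lower in all treated groups, by -0.42 in Dex+GW3965, -0.54 in Dex and -0.51 in GW3965 livers, and Mtor rose with dexamethasone (0.43). Nr1h3, the LXRα gene, changed by -0.09 with both compounds, -0.16 with dexamethasone and -0.07 with GW3965, of which only the dexamethasone change passed. Ctdnep1, a phosphatase that acts on lipins, did not pass in these comparisons. Over all probe sets the median change was -0.02 with both compounds, -0.01 with dexamethasone and -0.03 with GW3965.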

How the data were processed

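The authors re-mapped probes to UniGene and took perfect-match signals after MAS background subtraction, as their methods say. MAS5 is the tool given in the submitters' processing notes. The deposited values are log2 signals, read as log2 from their range (2.497 to 14.95). The array medians lay within 0.0357 of each other, and the values were not normalized again. After removal of 57 controls from 31099 probe sets, 16253 exceeded their array's median at least 2 times and were tested. The platform annotation gives 20826 probe sets 1 symbol, 436 several and 9780 none, and 20758 single symbols were matched to RefSeq (GRCr8) by identifier. The 8 arrays were fitted together, with a mean for each group, in limma 3.58.1 under R 4.3.3 (lmFit, eBayes with an intensity trend, 4 residual degrees of freedom, prior 12.7), which was tested on simulated data. The simulated arrays were independent, so that test cannot show whether the arrays a and b of a group come from the same liver. Figures were drawn with matplotlib.

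The 9 genes, the pathway and marker lists and the background level were chosen with earlier results of these data known. Lists were read on the brightest single-symbol probe set of a gene. Named were every probe set of the 9 genes, up to 4 of the called members of a list with the largest changes, and the 5 genes most like each gene whose group means spanned at least 1 on the log2 scale. Other genes of the lists, and the promoter motifs, were chosen after values were seen. Alternatives were quantile normalization, median centring, other filters, no intensity trend, fewer arrays, a replicate block and the methods' t-test. The file gives no detection calls.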

Additional observations from a re-analysis of the deposited data

Results flagged for a closer look

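For 11 of the 14 tested probe sets, both Pnpla3 probe sets among them, the interaction test passed, which is what singles them out here. It asks whether the change with dexamethasone differed between GW3965-treated and vehicle-treated rats. The difference (with GW3965 minus without, log2) was -1.63 and -1.53 for Lpin1, -0.56 for Pnpla2 and -0.22 for Dgat1. It was 0.71 and 0.97 for Gpam, 0.56 and 0.51 for Dgat2 and 0.51 for Agpat2. For Pnpla3 it was 0.69 and 0.77, with the signals of both groups with dexamethasone not above background, so that these values are not read as a change. The Dgat1 call was lost when arrays were centred on their medians (adjusted p = 0.0907) and in most other fits. Over all probe sets tested, 22.8% had a difference by the interaction test. With 2 arrays per group no single outlying array was looked for.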

How the results depend on the processing

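The counts of called probe sets among the 14 stayed within 1.5 times under all alternatives but the methods' t-test, which has 2 values per test. At its threshold of 0.05 it called 10 in Dex against vehicle, 2 in GW3965 against vehicle, 6 in Dex+GW3965 against vehicle, 5 in Dex+GW3965 against Dex, 8 in Dex+GW3965 against GW3965 and 11 in Dex against GW3965, where limma called 12, 7, 10, 8, 12 and 11. After Benjamini-Hochberg adjustment it called 0 in each of these 6 comparisons. Over all 16253 probe sets the t-test at 0.05 called 4335 in Dex, 2818 in GW3965 and 3789 in Dex+GW3965 against vehicle, where limma called 6806, 3325 and 5980. In Dex+GW3965 against Dex the t-test called 2732, where limma called 3698. Against GW3965 the t-test called 3741 in Dex+GW3965 and 4253 in Dex, where limma called 5825 and 6380. After adjustment the t-test called 19 to 38 over all probe sets in the 6 comparisons. Without 1 array at a time the counts ran from 11 to 12, 6 to 7, 8 to 10, 6 to 8, 11 to 12 and 10 to 11 in the same order, and from 9 to 10 for the interaction. The signs that turned belonged to changes that passed in neither fit. After quantile normalization the dimmer Lpin2 probe set stood at 0.015 with dexamethasone and Dgat1 at 0.034 with GW3965. Without 1 array, the dimmer Lpin2 probe set ran from -0.084 to 0.049 in Dex against vehicle, -0.11 to 0.019 in GW3965 against vehicle and -0.031 to 0.091 in Dex against GW3965. Lpin3 ran from -0.12 to 0.027 in GW3965 against vehicle, -0.047 to 0.20 in Dex+GW3965 against Dex and -0.0005 to 0.25 for the interaction. Dex+GW3965 against Dex ran from -0.055 to 0.36 and -0.063 to 0.27 for Pnpla3 and from -0.034 to 0.12 for the brighter Lpin2 probe set. Gpam ran from -0.0095 to 0.18 and -0.22 to 0.095 in Dex against GW3965.

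No source says that the letters a and b pair arrays. With the letters as a replicate block, 12 of the 14 probe sets were called in Dex, 7 in GW3965 and 10 in Dex+GW3965 against vehicle. For the interaction 10 were called, and Dgat1 was lost (adjusted p = 0.0558). Over all 16253 probe sets this block called 6618, 3099, 5800 and 3543 in the same order. Differences between a and b correlated at -0.232 between Dex+GW3965 and vehicle. A crossed replicate block of these groups, added after seeing the data, called 11 of the 14, against 9 with the letters as they stand. Over all probe sets the crossed block called 7075, against 4988 with the letters as they stand. The call gained in the crossed block over the fit to all arrays was the second Gpam probe set as lower (-0.18, adjusted p = 0.032), and with the letters as they stand Agpat2 was lost (adjusted p = 0.121).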
